A study of Mus musculus with 4 samples.

Results

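The proteasome is the large protease that breaks down proteins tagged with ubiquitin. Its core particle is a barrel of alpha subunits, which gate the entrance, and beta subunits, some of which cut peptide bonds. A regulatory particle made of a ring of ATPases and a set of non-ATPase subunits binds the tagged protein, removes the ubiquitin and feeds the chain into the barrel. Immune cells, and other cells under interferon, exchange the catalytic beta subunits for those of the immunoproteasome, which favours peptides for display on MHC class I. Activator complexes can take the place of the regulatory particle, and dedicated chaperones assemble the particles.

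The genes described here are those of the mouse whose RefSeq symbol begins with Psma, Psmb, Psmc, Psmd, Psme, Psmf or Psmg followed by a number. Counts of their transcript rows were summed per gene. There were 51 such genes among 53291 features, of which 32812 had a symbol. Of the 51 genes, 48 encode subunits, activators, an inhibitor or assembly chaperones of the proteasome. The other 3 matched by name and are listed apart: Psmc3ip, a meiotic recombination factor, Psme3ip1, a partner of an activator subunit, and Psme2b, a close copy of the activator gene Psme2.

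Expression was measured by RNA sequencing at 4 h in cultured C57BL/6 mouse cells labelled female germline stem cells, which had been kept for more than 20 passages. The 2 spermidine libraries came from cells given spermidine (SPD), a polyamine studied as an inducer of autophagy, and the 2 control libraries from cells labelled control. The sources used here give no dose. Nothing in the labels ties the libraries to separate cultures, and p-values then cover the spread among these 4 samples alone, which can be technical.

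The spermidine libraries held 787600 and 1718944 counts and the control libraries 7206176 and 7128901. The noncoding RNA AY036118, which overlaps an annotated ribosomal RNA pseudogene, took 29.6% and 30.7% of spermidine counts and 1.68% and 1.64% of control counts. Olfactory and vomeronasal receptor genes, which ovarian cells are not known for, had 3.18 and 0.175 counts per kb in the spermidine libraries and 0.0637 and 0.154 in the controls. Spermidine replicate 1 therefore stood apart in counts on these genes, and it was the shallowest library. Both spermidine libraries were shallower than both controls and held more AY036118. Depth and the AY036118 share thus divided the libraries in the same way as treatment did. The germ cell helicase gene Ddx4 had 1 and 0 counts in the spermidine libraries and 0 in each control, and the germ cell gene Dazl had 2 and 0 counts in the spermidine libraries and 0 and 1 in the controls. Ddx4 and Dazl, defining markers of the labelled cell type, were thus near 0 in all 4 libraries. Xist is a noncoding RNA made from the silenced X chromosome in females. Its counts were 114 and 588 in spermidine and 5 and 2 in the deeper controls. Xist was thus nearly absent from the controls, which are labelled female. Xist alone does not tell the sex of the cells, and its bearing on the proteasome genes was not tested. Markers of granulosa and theca cells summed to 2330 and 7020 CPM in the spermidine libraries and 162 and 134 CPM in the controls, after scaling by TMM (trimmed mean of M-values, which sets libraries to a common level). Of the 8 tested markers of that list 7 were called higher. Cyp11a1, the tested marker not called, gave 136 and 111 CPM of the control sums. Stroma markers summed to 1980 and 10200 CPM in the spermidine libraries and 68.8 and 131 CPM in the controls, with 4 of 6 called higher. Of the tested markers, 5 of 5 for oocytes, 4 of 4 for surface epithelium, 3 of 3 for endothelium and 3 of 4 for germline stem cells were called higher as well. Over all tested features, 24.8% were called higher. The oocyte list had 8 genes, and the surface epithelium and endothelium lists 5 each. Markers near 0 in the controls, such as Zp1 with 0 and 2 control counts, could pass the filter on low counts only through the spermidine libraries. Being tested then all but required a higher level, so the shares called do not describe the whole lists. Oocyte markers summed to 157 and 2200 CPM in the spermidine libraries, mostly in replicate 2, and 1.45 and 2.6 CPM in the controls. The germline list had 9 genes, of which 4 were tested, and Etv5 among them had a log2 fold change of -1.26. Of the called germline genes, Dppa3 had 9 and 263 spermidine counts and Pou5f1 had 2 and 42, mostly in replicate 2. The part of these markers in the results on proteasome genes was not tested. In bulk samples, fewer cells of a type and less RNA per cell cannot be told apart.

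The promoters of 3 genes that differ in what is known of their regulation and in their values below are shown first, chosen after those values were seen. Psmb8 encodes the immunoproteasome counterpart of the catalytic subunit made from Psmb5, and was the single gene of the set called different. Psme1 encodes an interferon-inducible activator subunit, and its spermidine and control levels overlapped. Each window runs from 250 bases before to 50 bases after the transcription start, from RefSeq on GRCm38.p6, written 5′ to 3′ on the gene's strand. Capitals mark matches on either strand to any of 6 motifs that were searched. The windows are chr17:34197945-34198244 on the plus strand for Psmb8, chr14:54617946-54618245 on the minus strand for Psmb5 and chr14:55578244-55578543 on the plus strand for Psme1.
Psmb8: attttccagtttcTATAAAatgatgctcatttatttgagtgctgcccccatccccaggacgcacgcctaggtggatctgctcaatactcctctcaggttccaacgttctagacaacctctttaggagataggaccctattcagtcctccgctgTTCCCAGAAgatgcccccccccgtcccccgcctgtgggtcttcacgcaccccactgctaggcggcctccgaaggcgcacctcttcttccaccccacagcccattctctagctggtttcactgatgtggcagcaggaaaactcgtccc
Psmb5: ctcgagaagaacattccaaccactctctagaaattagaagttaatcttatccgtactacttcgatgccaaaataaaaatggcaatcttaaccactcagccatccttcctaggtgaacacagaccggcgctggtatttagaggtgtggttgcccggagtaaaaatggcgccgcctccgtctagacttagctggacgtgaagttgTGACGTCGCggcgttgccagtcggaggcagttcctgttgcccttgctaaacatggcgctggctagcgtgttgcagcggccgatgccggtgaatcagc
Psme1: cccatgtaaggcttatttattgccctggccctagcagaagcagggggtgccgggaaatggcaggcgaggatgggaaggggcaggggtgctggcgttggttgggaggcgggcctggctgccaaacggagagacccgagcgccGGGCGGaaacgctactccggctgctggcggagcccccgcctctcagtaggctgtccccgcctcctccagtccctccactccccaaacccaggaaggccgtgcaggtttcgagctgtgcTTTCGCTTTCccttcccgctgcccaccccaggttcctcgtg

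The Psmb8 window held a match to TTCNNNGAA, the core of the gamma-activated site bound by STAT factors after interferon gamma, and a TATAAA far upstream of the start. The Psmb5 window held TGACNNNGC, the core of the antioxidant response element through which NRF1 is known to drive proteasome genes. In the Psme1 window there was a match to the core of the interferon-stimulated response element, searched as GAAA, any 2 bases and GAAA, and the GC box GGGCGG. The sixth motif searched was CCAAT. Of the 51 genes 43 had a window in the table, 47 windows in all. Among all 32851 windows of the table, 8.3% held TTCNNNGAA, 12.4% TGACNNNGC, 3.44% the interferon-stimulated core, 35.7% GGGCGG, 37.4% CCAAT and 13.6% TATAAA. Among the 47 windows of the proteasome genes, the shares were 6.38%, 12.8%, 10.6%, 53.2%, 34.0% and 8.51% in the same order of motifs. A match is a description of the letters and not evidence that a factor binds there.

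Which proteasome genes could be measured depended on the annotation behind the counts. Rows that shared every base with another row held next to no counts (0.0014% of a library, at the highest). A gene was therefore counted in practice only on bases covered by a single transcript row, called its own bases here. Of the 51 genes, 36 had 300 or more own bases and 36 passed the filter on low counts and were tested; 32 genes were in both groups. Of the 15 genes that were not tested, 11 had under 300 bases of their own. Psmb10, an immunoproteasome subunit gene, had 3 bases of its own and 0 counts. Psmd4, the gene of a ubiquitin receptor, had 31 bases of its own and 0 counts, and Psme2, the partner of Psme1, had 29 and 0. The scaffold gene Psmd2 had 92 bases of its own and 2 and 0 spermidine counts against 4 and 3 control counts. Such values do not show that a gene was silent.

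**Figure D1:**
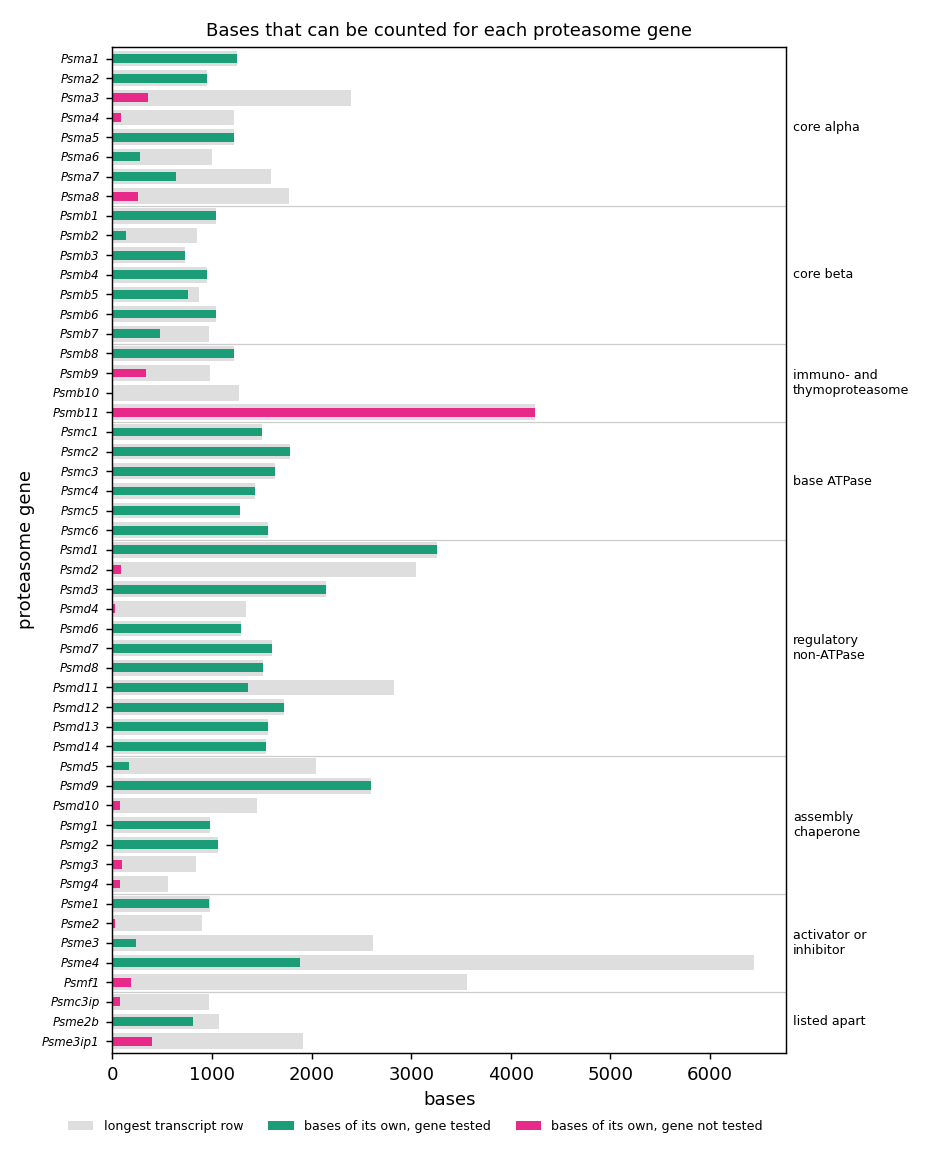
Bases that could be counted for each of the 51 genes. Grey bars give the length of the longest transcript row in bases and coloured bars the bases covered by a single row, for the 36 tested genes and the 15 genes not tested; Psmb10 had 3 such bases and Psmd1 had 3256.

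The remaining untested genes had few counts. The alpha subunit gene Psma3 had 0 and 1 spermidine counts against 1 and 0 control counts on 357 bases of its own, and Psma4 had 0 and 0 against 8 and 0 on 87 bases. Psma8, the alpha subunit gene of meiotic germ cells in testis, had 0 counts in all 4 libraries on 261 bases. The thymus subunit gene Psmb11, with 4247 bases of its own, had 25 and 1 spermidine counts and 2 and 1 control counts. Its 25 counts in spermidine replicate 1 are 5.89 counts per kb, beside the 3.18 per kb on receptor genes in that library. The immunoproteasome gene Psmb9 had 0 and 1 spermidine counts against 5 and 10 control counts on 335 bases. For the assembly chaperone genes, Psmd10 had 1 count in all, Psmg3 had 0 and 2 against 4 and 4, and Psmg4 had 6 and 0 against 0 and 3. The inhibitor gene Psmf1 had 0 counts on 187 bases, Psmc3ip had 1 count in all, and Psme3ip1 had 2 and 0 against 3 and 8.

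As a whole the 51 genes took a smaller share of the spermidine libraries than of the controls. They held 3485 and 12594 counts in the spermidine libraries, which is 0.442% and 0.733% of all counts, with exact 95% Clopper-Pearson bounds of 0.428% and 0.457% for the first and 0.72% and 0.746% for the second. In the controls they held 97672 and 88690 counts, or 1.36% (1.35 to 1.36) and 1.24% (1.24 to 1.25). These intervals cover counting error only. With AY036118 left out of the totals, the shares were 0.628% and 1.06% in spermidine against 1.38% and 1.26% in control. The spermidine libraries were both below the controls by either reckoning, and they differed more from each other than the controls did. After TMM scaling the summed levels were 3990 and 8960 CPM in spermidine and 14200 and 12800 CPM in control.

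Of the 36 tested genes, 1 was called lower in spermidine and 0 were called higher by the quasi-likelihood test of edgeR, taking 0.05 as the limit of the p adjusted by Benjamini-Hochberg. Over all 7836 tested features, 28.8% were called, 3.99% lower and 24.8% higher. All 36 genes had a log2 fold change below 0 in this fit, against 45.7% of tested features. The direction was not the same under each setting: 30 of 35 tested genes were below 0 when 1 CPM was required in all 4 libraries, against 48.0% of features, and 29 of 34 with the controls thinned to the mean spermidine total, against 44.7%. The median log2 fold change of the 36 genes was -1.09, against 0.23 over all tested features. It was -0.74 with 1 CPM required, against 0.059 over features, and -0.64 with thinned controls, against 0.18. At an unadjusted p under 0.05, 9 of the 36 genes were lower and 0 higher, against 10.2% lower among all tested features. Both spermidine libraries lay below both controls for 31 of the 36 genes, against 29.6% of tested features. The standard errors of these fold changes had a median of 0.60 on the log2 scale. Of the 36, 33 passed the filter's 2.26 CPM in all 4 libraries and 3 passed only through the controls.

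**Figure D2:**
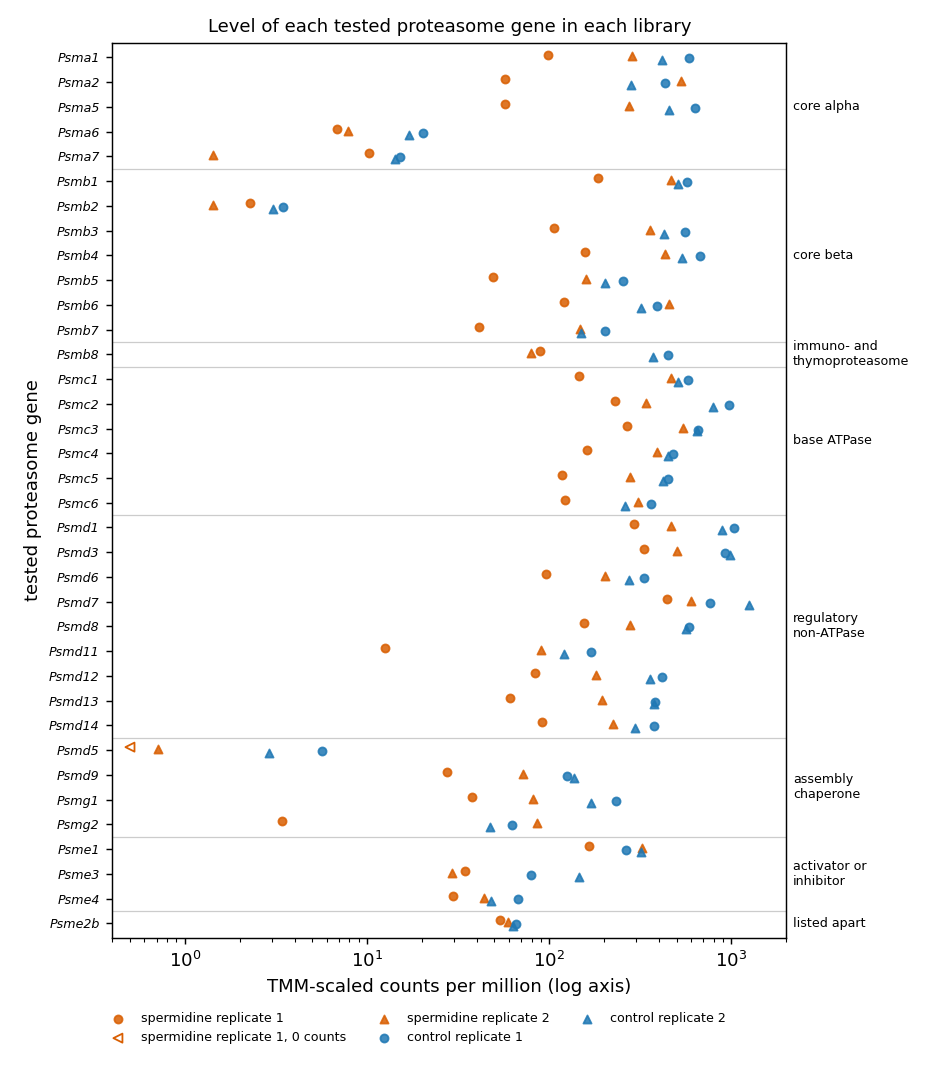
TMM-scaled CPM, on a log axis, of the 36 tested genes in each library, grouped by role, with 1 point per library. Spermidine replicate 1 is the lowest library for most genes, and for Psmb8 the spermidine libraries, at 89.2 and 79.7 CPM, lie together and below the controls at 451 and 370 CPM.

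The spermidine libraries were unequal for most of the set. In 31 of the 36 genes the scaled level was higher in spermidine replicate 2 than in replicate 1, with a median ratio of 2.34 and a range up to 24.9 for Psmg2. Between the controls, replicate 1 was the higher for 31 genes, with a median ratio of 1.21 and a highest ratio of 1.95. Other settings gave between 0 and 8 genes called lower when all 4 libraries were kept, and each count is set here beside the share of all tested features called lower under the same setting. There was 1 gene with RLE factors (3.79% of features), 1 with the replicate number as a block (1.20%), 1 with thinned controls (2.24%), 1 with the edgeR legacy method (3.09%), 1 with the receptor background subtracted (3.38%) and 1 with all libraries thinned without AY036118 (1.90%). There were 2 with limma-voom (3.76%) and 2 on the deposited transcript rows (4.10%), 3 on genes with a single row (5.56%) and 3 on protein-coding genes (4.67%), and 4 with DESeq2 (4.87%) and 4 without AY036118 (4.31%). There were 5 with upper-quartile factors (4.52%), 7 at an adjusted p under 0.1 (8.49%) and 8 with library totals (5.36%). With no low-count filter there were 0 (0 of all features), and with at least 1 CPM in all libraries 0 (0.860%). Psmb8 was called in each of these settings except the last pair.

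Fits that left out a spermidine library gave different numbers of calls. Without spermidine replicate 2, 28 of the 36 genes were called lower, where 15.4% of all tested features were, and the median was -1.83. Without spermidine replicate 1, 0 genes were called (9 at an unadjusted p under 0.05), where 0.408% of all tested features were called lower, and the median was -0.68. Without control replicate 1 or control replicate 2, 0 genes were called by edgeR, with 1 and 2 at an unadjusted p under 0.05. Of all tested features, 0 and 0.868% were called lower in those fits. Each of these fits takes the spread of the lone library to be that of the other group.

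**Figure D3:**
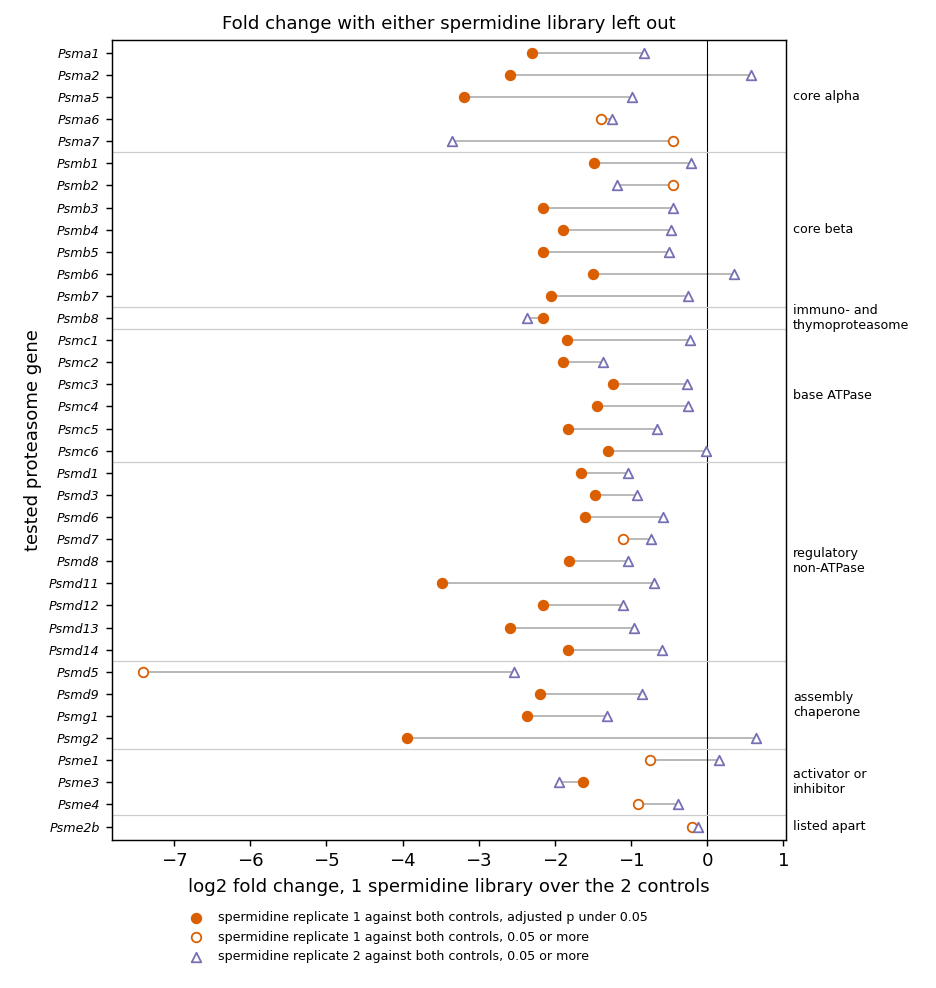
Log2 fold change of each tested gene with 1 spermidine library against both controls, as circles for spermidine replicate 1 and triangles for spermidine replicate 2; filled symbols have a Benjamini-Hochberg adjusted p under 0.05 by edgeR. Replicate 1 gives the lower value for most genes, and Psmb8 has -2.15 and -2.36.

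Psmb8, on chromosome 17 from 34198195 to 34201454 (GRCm38, plus strand), was the 1 gene of 36 that was called lower, a share below the 3.99% of all tested features. It had 78 and 112 spermidine counts against 3114 and 2557 control counts on 1223 bases of its own, or 89.2 and 79.7 scaled CPM against 451 and 370. The groups did not overlap, and the spermidine libraries were closer to each other than for most of the set. The log2 fold change was -2.28 ± 0.53 SE (adjusted p = 0.0117 in the edgeR test, adjusted by Benjamini-Hochberg), a 4.87-fold lower level. Without spermidine replicate 2 the value of Psmb8 was -2.15 (adjusted p = 0.00282 by the same edgeR test), and without spermidine replicate 1 it was -2.36 (adjusted p = 0.0657). The call on Psmb8 was also lost in edgeR without control replicate 1 (adjusted p = 0.19), without control replicate 2 (0.112), with no low-count filter (0.268) and when 1 CPM was required in all 4 libraries (0.0505). In the 21 alternatives it lay between -2.77 and -1.44.

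Psmb8 and Psmb5 encode alternative forms of the same catalytic subunit. Their ratio within a library, like that of any pair of genes, does not depend on scaling. There were 1.81 and 0.498 Psmb8 counts per Psmb5 count in the spermidine libraries, against 1.78 and 1.83 in the controls. The ratio in spermidine replicate 1 was therefore like that of the controls, and the ratio in replicate 2 was lower. Set against Psmb1, a structural beta subunit gene, Psmb8 gave 0.479 and 0.171 in spermidine and 0.79 and 0.722 in control, with both spermidine libraries below both controls. Leukocyte markers had mixed values. Their 8 genes summed to 255 and 84 scaled CPM in spermidine and 1840 and 1340 in control, and 3 of 5 tested, Plek, Cd53 and Fcer1g, were called lower, with -3.91, -2.76 and -3.00 on the log2 scale, against 3.99% of all tested features. Tyrobp had -1.68 and Coro1a -0.32, and neither was called. Ptprc, Laptm5 and Lcp1 had 0 counts in both controls, on 196, 85 and 591 bases of their own. In spermidine replicate 1 Ptprc had 3 counts and Lcp1 had 5, and in replicate 2 both had 0. The part of leukocyte transcripts in the Psmb8 result was not tested.

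The genes of MHC class I display, taken as a list beside the proteasome, gave 0 calls among 4 tested of 10. Of all tested features, 28.8% were called. The median log2 fold change of the 4 was -0.88, against 0.23 over all tested features. Tap2, a subunit of the peptide transporter and the next annotated gene after Psmb8, had 120 and 131 spermidine counts against 1865 and 2190 control counts. Its log2 fold change was -1.36 ± 0.52 SE (adjusted p = 0.0861, edgeR with Benjamini-Hochberg adjustment). B2m, the light chain of class I, had -0.87 and the class I heavy chain gene H2-D1 -0.89, while Erap1, a peptide trimming enzyme, had 1.21. The interferon regulator Irf1 had 1 and 6 spermidine counts and 4 and 9 control counts and was not tested.

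The remaining catalytic genes were Psmb5, Psmb6 and Psmb7, which carry the chymotrypsin-like, caspase-like and trypsin-like activities. Psmb5 had 43 and 225 spermidine counts against 1745 and 1399 control counts. In scaled CPM that was 49.2 and 160 in spermidine and 253 and 202 in control, without overlap. Psmb7 had 36 and 208 counts against 1394 and 1040, and its scaled levels of 41.2 and 148 CPM came within a small distance of the lower control at 150. Psmb6 had 106 and 637 counts against 2693 and 2218, and its groups overlapped, with 121 and 453 scaled CPM in spermidine and 390 and 321 in control. The log2 fold changes were -1.09 ± 0.63 for Psmb5, -0.87 ± 0.65 for Psmb7 and -0.30 ± 0.65 for Psmb6 (SE), and none was called. Within libraries, Psmb6 gave 2.47 and 2.83 counts per Psmb5 count in spermidine and 1.54 and 1.59 in control. The value of Psmb6 turned to 0.35 without spermidine replicate 1, to 0.02 when 1 CPM was required in all 4 libraries, to 0.12 with thinned controls and to 0.13 with all libraries thinned.

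Among the structural beta subunit genes, Psmb4, Psmb1 and Psmb3 had the most counts. Psmb4 had 137 and 606 spermidine counts against 4617 and 3683 control counts, Psmb3 had 93 and 505 against 3828 and 2968, and Psmb1 had 163 and 654 against 3942 and 3541. Scaled levels of Psmb4 were 157 and 431 CPM in spermidine and 669 and 533 CPM in control. In all 3 genes both spermidine libraries lay below both controls, and replicate 2 was the nearer to them. The log2 fold changes were -1.02 ± 0.61 for Psmb4, -1.07 ± 0.64 for Psmb3 and -0.73 ± 0.58 for Psmb1 (SE). Psmb2 had 2 and 2 counts against 24 and 21 on 133 bases of its own, too few for a firm value (-0.87 ± 0.90). Of the 7 core beta genes, 0 were called and the median log2 fold change was -0.87.

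The alpha subunit genes form the outer rings of the barrel and its gate. Psma5 had the most counts of them, 50 and 386 in spermidine against 4365 and 3138 in control. Its scaled levels were 57.2 and 275 CPM in spermidine and 633 and 454 CPM in control, and its log2 fold change was -1.69 ± 0.72 SE (adjusted p = 0.116 by edgeR with Benjamini-Hochberg adjustment). Psma1 had 98.3 and 283 CPM against 587 and 417, also without overlap (-1.38 ± 0.62). Psma2 was unlike these, with 57.2 and 532 CPM in spermidine against 432 and 280 in control. The spermidine libraries of Psma2 thus lay on either side of the controls, and the value of -0.26 ± 0.84 became 0.58 when spermidine replicate 1 was left out and -2.59 when replicate 2 was. In counts of Psma2 per count of Psma5, the libraries gave 1.0 and 1.94 in spermidine and 0.683 and 0.617 in control. Psma6 and Psma7 were counted on 273 and 639 bases of their own. Psma7 had 9 and 2 counts against 105 and 98, the reverse order of the spermidine libraries to most of the set. Of 5 tested alpha genes 0 were called, and their median was -1.38.

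The ATPases of the base unfold the substrate and open the gate. Psmc2 had the most counts of them, with 200 and 481 in spermidine against 6734 and 5486 in control. That was 229 and 342 scaled CPM against 976 and 794, and the groups were well apart. The log2 fold change of Psmc2 was -1.63 ± 0.54 SE, just outside the threshold (adjusted p = 0.0509 by edgeR with Benjamini-Hochberg adjustment). It was called lower in 10 of the 21 alternatives, which include the looser limit of 0.1 and the fit without spermidine replicate 2. Its value was -1.37 without spermidine replicate 1 and -1.90 without replicate 2. Psmc3, which had 266 and 545 scaled CPM in spermidine and 659 and 650 in control, had -0.68 ± 0.55. Psmc2 gave 0.858 and 0.628 counts per Psmc3 count in spermidine and 1.48 and 1.22 in control, so the proportion of these ring partners was lower in both spermidine libraries. Psmc5 had -1.14 ± 0.57, Psmc1 -0.82 ± 0.63 and Psmc4 -0.74 ± 0.57. Psmc6 overlapped, with 122 and 308 CPM in spermidine and 360 and 262 in control. None of the 6 ATPase genes was called by edgeR, and their median was -0.78.

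The non-ATPase genes of the regulatory particle, which include its scaffold, lid and ubiquitin-removing enzyme, had both spermidine libraries below both controls in all 9 tested members, as 29.6% of all tested features did. Psmd7, a lid subunit paired with the deubiquitinase, had the most counts of the set: 388 and 844 in spermidine against 5237 and 8634 in control. Its scaled levels were 444 and 601 CPM in spermidine and 759 and 1250 CPM in control, and its log2 fold change was -0.94 ± 0.55. The scaffold gene Psmd1 had 292 and 465 CPM against 1030 and 887 (-1.34 ± 0.54, adjusted p = 0.0977 by edgeR with Benjamini-Hochberg adjustment). The lid gene Psmd3 had 330 and 505 CPM against 919 and 988 (-1.19 ± 0.53). Psmd12 had 83.5 and 180 CPM against 414 and 356 (-1.53 ± 0.57, adjusted p = 0.0751 by the same edgeR test). For Psmd13 the values were 60.6 and 195 CPM in spermidine and 382 and 377 CPM in control. Psmd14, which encodes the deubiquitinase, had 91.5 and 224 CPM against 377 and 297 (-1.08 ± 0.58). The lid gene Psmd8 had 156 and 278 CPM in spermidine and 582 and 563 CPM in control (-1.39 ± 0.54), and Psmd6 had -1.01 ± 0.56. Psmd11 had 11 and 126 counts against 1176 and 829, and its 8.05 counts per kb in spermidine replicate 1 were not far above the 3.18 on receptor genes. The role's median was -1.34, its range was -1.55 to -0.94, and 0 of 9 were called by edgeR.

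**Figure D4:**
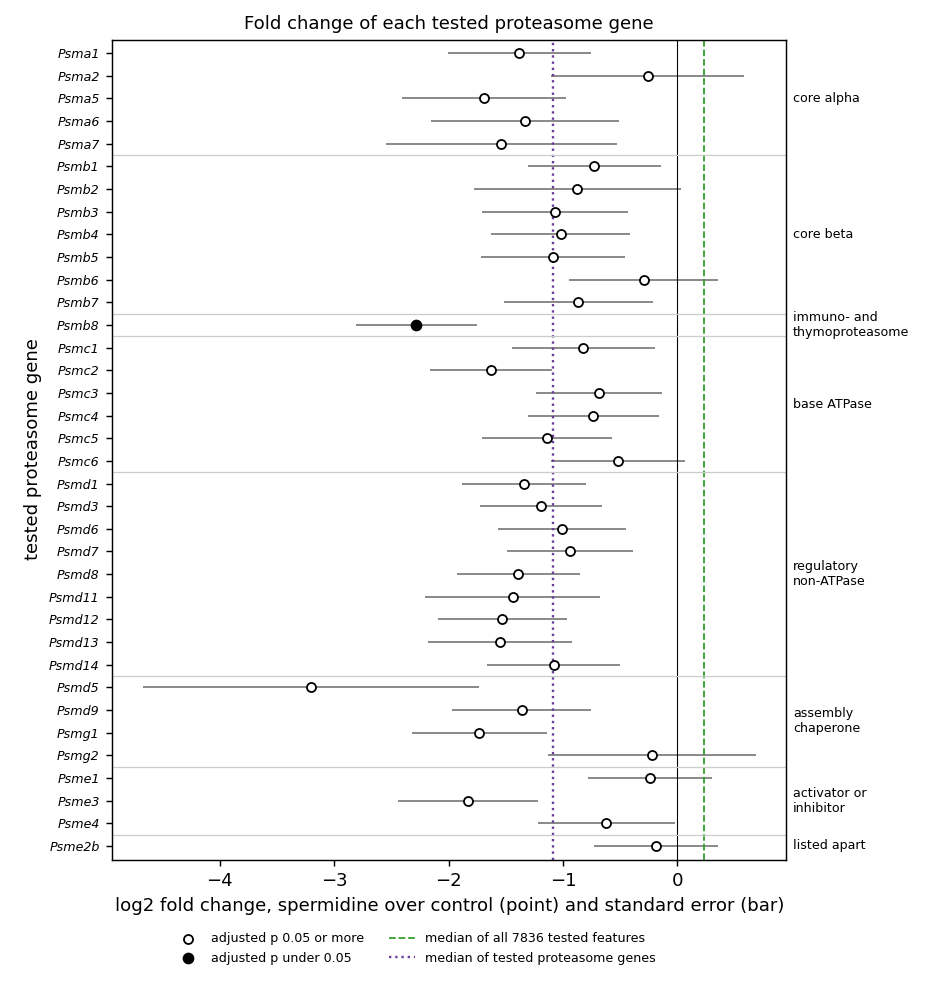
Log2 fold change of spermidine over control (points) with its standard error (bars) for the 36 tested genes by role; the filled point has an adjusted p under 0.05 by edgeR. The dotted line is the median of these genes at -1.09, the dashed line the median of all tested features at 0.23, and Psmb8 stands at -2.28.

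Assembly chaperone genes were tested for 4 of 7. Psmg1, whose product starts the alpha ring, had 33 and 114 spermidine counts against 1606 and 1169 control counts. Scaled, that was 37.7 and 81.1 CPM against 233 and 169, without overlap, and a log2 fold change of -1.73 ± 0.59 SE (adjusted p = 0.0572 by edgeR with Benjamini-Hochberg adjustment). Its partner Psmg2 had 3 and 120 counts against 432 and 327. The 2.83 counts per kb of Psmg2 in spermidine replicate 1 were under the receptor level there, while replicate 2, at 85.4 scaled CPM, was above both controls at 62.6 and 47.3. Its value was -0.22 ± 0.91, or 0.64 when spermidine replicate 1 was left out and -3.94 when replicate 2 was. Counts of Psmg2 per count of its dimer partner Psmg1 were 0.0909 and 1.05 in spermidine and 0.269 and 0.28 in control. Psmd9, a chaperone of the base, had 27.4 and 71.9 CPM against 125 and 136 (-1.36 ± 0.61). Its 9.26 counts per kb in spermidine replicate 1 were under 3 times the 3.18 on receptor genes. Psmd5, another chaperone of the base, had 0 and 1 counts against 39 and 20. That was a pooled ratio of 0.103 with a 95% counting interval of 0.00256 to 0.595.

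The activator genes had values that differed among themselves. Psme1 had 145 and 457 spermidine counts against 1827 and 2203 control counts, or 166 and 325 scaled CPM against 265 and 319. Spermidine replicate 2 was level with the controls, and the log2 fold change was -0.24 ± 0.54 SE, with a 0.16 value without spermidine replicate 1. Psme3, the nuclear activator gene, had 30 and 41 counts against 545 and 1000 on 238 bases of its own, and scaled levels of 34.3 and 29.2 CPM against 79.0 and 145. The groups were apart, and the log2 fold change was -1.83 ± 0.62 (adjusted p = 0.0553 by edgeR with Benjamini-Hochberg adjustment). Psme4, an activator of the nucleus known for a role in sperm histone removal, had 29.7 and 44.1 CPM against 67.4 and 48.0 (-0.62 ± 0.60). Set against Psmb1, Psme1 gave 0.89 and 0.699 in spermidine and 0.463 and 0.622 in control. Per Psmb8 count, there were 1.86 and 4.08 Psme1 counts in spermidine and 0.587 and 0.862 in control, so this pair of interferon-inducible genes did not keep its proportion. Psme2b had 53.7 and 59.1 CPM against 65.6 and 63.4 (-0.19 ± 0.54). Because Psme2b is a near copy of Psme2, which had 29 bases of its own, its counts may include reads from Psme2, and the sources used here do not say how reads matching both were treated.

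Levels can be compared between genes per length. Over the 22 tested core, ATPase and non-ATPase genes with a single row and 300 or more own bases, the median level was 94.8 and 226 scaled CPM per kb in the spermidine libraries and 385 and 332 in the controls. The highest was above the lowest by 7.14 and 5.35 times in spermidine and by 3.3 and 4.65 times in control. Core beta genes had medians of 145 and 449 CPM per kb in spermidine and 551 and 495 in control, and were the highest role in all 4 libraries. Non-ATPase genes had medians of 81.8 and 151 in spermidine and 286 and 256 in control. As shares of all counts on the set, alpha genes took 5.77% and 12.3% in spermidine against 11.9% and 9.21% in control, and the activator and inhibitor genes 5.77% and 4.45% against 2.9% and 3.99%. The ATPase share was 26.2% and 26.0% in spermidine and 24.7% and 24.0% in control.

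Other genes of the pathway came from a list of cofactors, enzymes and regulators, with 17 tested of 27 matched. They gave 0 calls by edgeR in either direction, where 28.8% of all tested features were called. Their median log2 fold change was -0.66, against 0.23 over all tested features. Of the 17, 12 were below 0, against 45.7% of all tested features. Vcp, the segregase that extracts substrates for the proteasome, had 259 and 1018 spermidine counts against 14404 and 11394 control counts (-1.87 ± 0.63 SE, adjusted p = 0.0552 by edgeR with Benjamini-Hochberg adjustment). Pomp, which matures the core particle, had 75 and 227 against 2917 and 2346 (-1.61 ± 0.55, adjusted p = 0.059 by the same edgeR test). The ubiquitin ligase gene Ube3c had -1.63 and the shuttle receptor gene Rad23b -1.55. Sem1, a small lid subunit, had 119 and 474 counts against 1685 and 1600 and a log2 fold change of 0.00 ± 0.57. Nfe2l1, which encodes NRF1, had 16 and 1 counts against 12 and 29 on 242 bases of its own and a value of 1.44 ± 1.18. The ubiquitin receptor gene Adrm1 had no bases of its own and was not counted.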

How the data were processed

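RNA of 2 spermidine and 2 control samples was sequenced. Per the labels' protocols, paired-end Illumina libraries were prepared from isolated mRNA, with a pair of kits named. HISAT2, DESeq2 and the build mm9 are named, without roles, per the submitters' processing notes. The deposited counts are whole numbers without normalisation, given by the authors for 106519 transcript rows of RefSeq. The program that counted reads, and what it did with reads of several matches, are details that the sources used here do not give. Of the rows, 80.8% matched a gene of the RefSeq GRCm38.p6 table, and 88.5% of those lay inside their gene's span there, so positions are given as GRCm38. Rows covered wholly by others held at most 0.0014% of a library's counts.

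Counts were summed per gene, filtered (edgeR filterByExpr, count minimum 10, total minimum 15), scaled by TMM (factors 1.3 and 0.824 for spermidine, 0.961 and 0.973 for control) and tested with edgeR 4.0.16 (glmQLFit without the legacy method, glmQLFTest) in R 4.3.3, on group alone. The limit for a call was 0.05 for the p adjusted by Benjamini-Hochberg across the 7836 tested features. Standard errors are the log2 fold change over the root of the F statistic. Scaled CPM is CPM on each library's total over the tested features multiplied by its factor. A floor of 3 counts over a group was used for Psmd5, and the median of the set with Psmd5 at that floor was -1.09. DESeq2 1.42.0 and limma 3.58.1 were alternatives, with others of scaling, filter, depth, features and left-out libraries; 4 of the 21 were chosen after seeing the data. Chi-square over degrees of freedom between replicates was 32.2 for spermidine and 40.8 for control, so neither pair is a duplicate. The members, gene lists and tests were chosen with earlier results of these data known. Full values are given for called genes, the tested gene with the most counts in each role and a fixed set of catalytic, immunoproteasome, activator and chaperone genes; others were added after their values were seen. The values of 1 gene of the pathway list are not reported here.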

Additional observations from a re-analysis of the deposited data

How the results depend on the processing

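The tested proteasome genes numbered 36 in the main setting and from 29 to 46 in the alternatives. Their median log2 fold change was below 0 in each of the 21 alternatives, and 0 were called higher in any. With all 4 libraries kept, that median ran from -1.41 with no low-count filter to -0.50 with all libraries thinned without AY036118. It was -0.64 with thinned controls. The number called lower, 1 in the main setting, was 5 with upper-quartile factors, 8 with library totals, 4 with DESeq2, 2 with limma-voom, 7 at an adjusted p under 0.1, 4 without AY036118, 2 on the deposited transcript rows, 3 on genes with a single row and 3 on protein-coding genes. It was 0 with no low-count filter and 0 with at least 1 CPM in all libraries, with 8 and 6 lower at an unadjusted p under 0.05 by edgeR, and with Psmb11 higher at that level with no filter. Over the fits that left out 1 library it ranged from 0 to 28, and the median from -1.83 to -0.68. Not all tested genes were below 0 with no filter (40 of 46 were), at least 1 CPM (30 of 35), thinned controls (29 of 34), background subtracted (34 of 36), equal depth without AY036118 (25 of 32), without spermidine replicate 1 (32 of 36) and without control replicate 1 (35 of 36). Psme1 turned to 0.157 without spermidine replicate 1 (-0.75 without spermidine replicate 2), 0.108 with 1 CPM, 0.288 with thinned controls, 0.00545 with the receptor background subtracted and 0.303 at equal depth. Psmb6 turned to 0.351 without spermidine replicate 1 (-1.5 without replicate 2), 0.0236 with 1 CPM, 0.118 with thinned controls and 0.13 at equal depth. Psmg2 turned to 0.636 without spermidine replicate 1 (-3.94 without replicate 2), 0.0428 with 1 CPM, 0.127 with thinned controls and 0.404 at equal depth, and Psme4 to 0.207 at equal depth. The cause of these changes was not tested, and stricter filters also left fewer genes tested.

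The count of features called, 2256 of 7836, was 0 with no filter (4255 at an unadjusted p under 0.05), 275 with 1 CPM in all libraries, 1068 with thinned controls, 1494 with the background subtracted and 792 at equal depth. It ranged from 0 to 3725 over the fits that left out 1 library. The labels give both groups replicate numbers 1 and 2 and do not say that these numbers pair the samples. Replicate differences correlated at -0.0299 between groups. Their standard deviation over all tested features was 1.87 in spermidine and 0.804 in control on the log2 scale. With spermidine replicate 1 standing apart, the correlation cannot show whether samples were paired. With the replicate number as a block, 1 proteasome gene, Psmb8, was called lower, the median was -1.24 and 1775 features were called. A spermidine count is worth 1.14 and 0.712 scaled CPM, against 0.145 in each control, which limits the low-count genes such as Psmb2, Psmd5 and Psma7.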
